A study of Homo sapiens with 12 samples.

Results

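The comparison described here sets the 3 untreated libraries labelled H1703 against the 3 untreated libraries of H1299, 6 of the 12 libraries of the series, over every annotated gene. Both are established human lines of non-small-cell lung cancer. H1299 grew out of a lymph node metastasis, and H1703 is known for extra copies of PDGFRA and FGFR1. The study gave each line the histone deacetylase inhibitor SAHA or its vehicle and sequenced polyadenylated RNA from 3 replicates per line and treatment. Both groups compared here received only the vehicle, 0.1% DMSO, for 24 h, and the labels name no transgene or knockdown. Each group is a single established line, so what belongs to the line and what belongs to its culture cannot be told apart. Whether replicates came from separate cultures is not stated, and the p-values below reflect only the spread among these libraries, which may be technical. The members were all 58302 genes of the tables, of which 26072 had no count in any of the 6 libraries and 16942 passed the filter on low counts.

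A tumour line carries the record of the cell it came from and of what it has lost since. Cadherins, keratins and vimentin mark epithelial and mesenchymal states, lineage transcription factors mark the tissue, and cancer-testis antigens are germline genes that are normally silent in somatic cells. Genes that are deleted or held silent by chromatin give no transcript at all, and neighbours on a chromosome can be lost together.

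The label of the H1703 libraries was checked first against the genes that line is known for. PDGFRA went against it, and FGFR1 did not differ from H1299. PDGFRA, the platelet-derived growth factor receptor alpha, had 0, 3 and 1 counts in H1299 and 32, 40 and 31 in the H1703-labelled libraries. The level was 2.20 ± 0.147 CPM (counts per 1M counts, scaled by edgeR's TMM factors; SD, n = 3) and 0.175 FPKM (fragments per kilobase of gene length and 1M counts), a low level for a gene that the line is known to amplify. FGFR1, a fibroblast growth factor receptor, had 1560, 1814 and 1163 counts in H1299 and 1391, 1684 and 1450 in the H1703-labelled libraries, and the groups overlapped. Its log2 fold change, always given as H1703-labelled minus H1299, was 0.10 ± 0.18 (SE), with an adjusted p of 0.632 in edgeR's quasi-likelihood test with Benjamini-Hochberg adjustment over all genes tested. It turned to -0.08 without replicate 3 of H1299 and to -0.09 with no scaling beyond the total count. The FGFR1 copy number of H1299 is not given, so equal levels do not show whether extra copies are present. Because of PDGFRA, the groups are called H1299 and the H1703-labelled libraries. Every direction drawn from the label below rests on that label.

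The libraries held 15.2M to 18.3M counts, and replicates of one line differed by more than sampling noise, so none was merged. The test called 12260 of 16942 genes at an adjusted p under 0.05, which is 72.4%, with 6258 higher in the H1703-labelled libraries (36.9%) and 6002 lower (35.4%). A difference of 2-fold or more was called for 6256 genes (36.9%), 3492 higher (20.6%) and 2764 lower (16.3%). These shares are the background against which each gene list below is read, since a share near them is no result about a list. A gene at 0 in every library of one line passed the filter through the other line alone, so its direction was fixed. Such genes were 6 of 37 tested chemokines and cytokines and 11 of 62 cytochrome P450 and conjugation genes. They were also 12 of 110 G-protein-coupled receptors and 17 of 138 ion channels. The 3 libraries of one line lay wholly above or below those of the other for 13031 genes tested (76.9%), so groups that do not overlap were the rule. The median log2 fold change over all genes was 0.01, and it moved to -0.18 when libraries were scaled by their total counts alone. The H1703-labelled libraries held 5.44 to 6.27% of their counts in mitochondrially encoded genes and the H1299 libraries 1.96 to 2.22%; without those genes 12250 genes were called.

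**Figure D1:**
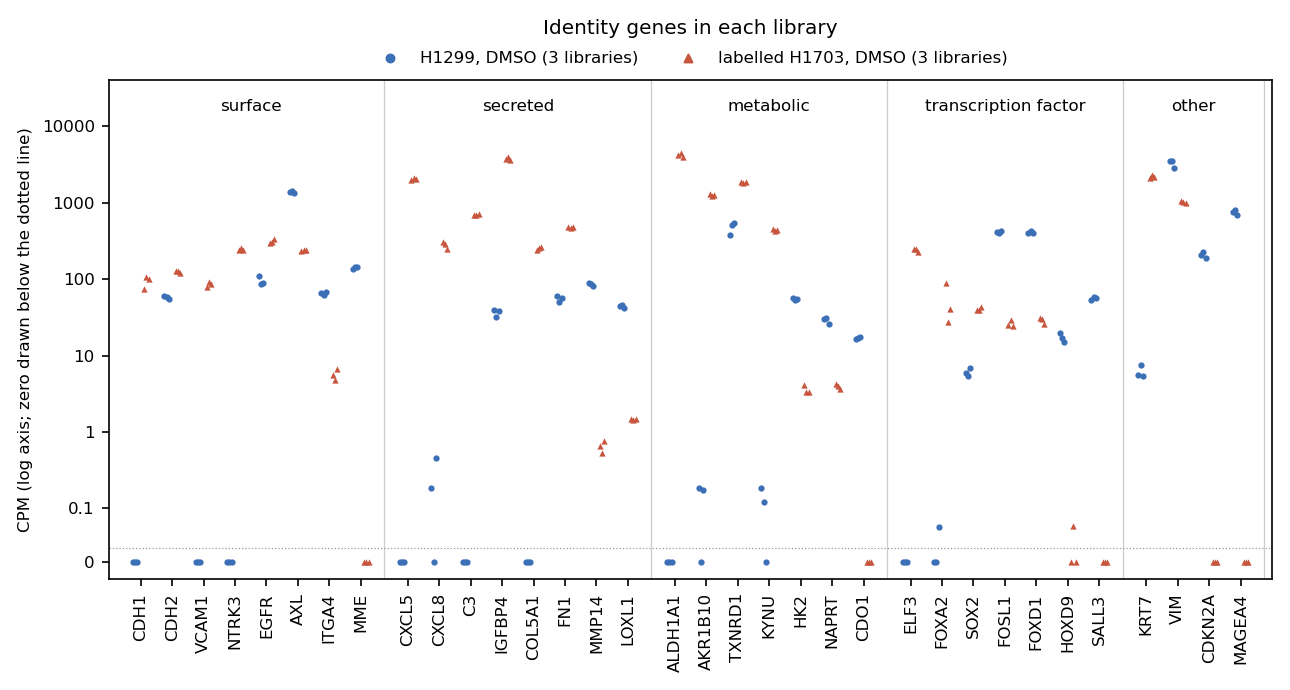
Each point is 1 library under DMSO, with TMM-scaled CPM on a log axis and zero drawn below the dotted line; circles are H1299 and triangles the H1703-labelled libraries. For the surface, secreted, metabolic, transcription factor and other genes drawn, the 2 groups of 3 do not overlap, as for 76.9% of all genes tested. CDH1, CXCL5, ALDH1A1 and ELF3 sit at 0 in H1299 while MME, CDKN2A and MAGEA4 sit at 0 in the other line.

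Among surface genes, the H1703-labelled libraries held E-cadherin, VCAM1 and most tested integrins, ephrin receptors and immunoglobulin-type adhesion genes higher, receptor tyrosine kinases were divided, and H1299 held AXL, the integrin chain ITGA4 and the peptidase MME high. CDH1, the E-cadherin that joins epithelial cells, had 0, 0 and 0 counts in H1299 and 1144, 1819 and 1424 in the H1703-labelled libraries, at least 1578-fold higher against the limit of 3 counts over the 3 libraries of H1299 (adjusted p = 7.69e-06). CDH2, the N-cadherin usually seen in mesenchymal and neural cells, was not its mirror image, with 994, 967 and 962 counts in H1299 and 1990, 2142 and 1751 in the H1703-labelled libraries (log2 fold change 1.12 ± 0.06). Both cadherins were thus higher in the H1703-labelled libraries, and neither pair of groups overlapped, as for 76.9% of all genes tested. PCDHGA3, a clustered protocadherin whose exons overlap those of its neighbours so that its reads cannot be assigned with certainty, had 804, 609 and 670 counts in H1299 and 0, 0 and 1 in the H1703-labelled libraries.

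Of the receptor tyrosine kinases, 12 of 26 tested members rose and 7 fell, with a median log2 fold change of 0.22. The median was 0.03 under scaling by total counts, and the summed level was 2107 to 2227 CPM in H1299 and 1862 to 1960.3 in the H1703-labelled libraries. AXL, a receptor for the ligand GAS6, had 22453, 23541 and 23288 counts in H1299 and 3626, 4128 and 3490 in the H1703-labelled libraries, and fell by 2.51 ± 0.05 on the log2 scale (adjusted p = 7.29e-09). NTRK3, the neurotrophin-3 receptor, showed the opposite pattern with 0, 0 and 0 counts in H1299 and 3710, 4363 and 3423 in the H1703-labelled libraries, at least 4134-fold higher. EGFR had 1806, 1430 and 1538 counts in H1299 and 4539, 5186 and 4827 in the H1703-labelled libraries and ERBB2, its dimerization partner, 596, 598 and 590 counts in H1299 and 1859, 1947 and 1611 in the H1703-labelled libraries. These rose by 1.72 ± 0.11 and 1.71 ± 0.06 on the log2 scale, IGF1R, the insulin-like growth factor 1 receptor, by 2.68 ± 0.08 and MET, the hepatocyte growth factor receptor, by 0.58 ± 0.05. The 3 libraries of each line stayed apart for all 4 receptors, as for 76.9% of all genes tested. Ephrin receptors and ephrins, which signal between touching cells, had 14 of 18 tested members higher and 2 lower, and 12 passed 2-fold upwards with none downwards. EPHB2 rose by 4.13 ± 0.06 and EPHA7 by 4.64 ± 0.10, EPHA6 went from 0, 0 and 0 to 104, 90 and 113 counts, and EPHA2 fell by 0.89 ± 0.06.

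Integrins, the receptors for extracellular matrix, had 14 of 21 tested members higher and 4 lower. ITGB1, the shared beta chain, rose by 1.11 ± 0.09 and ITGB3, a partner of the alpha V chain, by 4.24 ± 0.09. ITGA11, a collagen-binding chain, had 0, 1 and 0 counts in H1299 and 92, 105 and 76 in the H1703-labelled libraries, a ratio of 294 (95% counting interval 52.4 to 11676). ITGA4, the chain that binds VCAM1, went the other way with 1061, 1026 and 1166 counts in H1299 and 86, 81 and 95 in the H1703-labelled libraries, as did the laminin-binding chain ITGA6, which fell by 2.65 ± 0.06. VCAM1 itself had 0, 0 and 0 counts in H1299 and 1217, 1532 and 1241 in the H1703-labelled libraries, so the receptor chain was high in one line and its ligand in the other. Immunoglobulin-type adhesion genes had 40 of 55 tested members higher and 11 lower, with CADM1 up by 8.05 ± 0.14. NTM, a neural adhesion gene of the same group, had 252, 196 and 223 counts in H1299 and 0, 0 and 0 in the H1703-labelled libraries.

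Surface antigens better known from blood cells divided both ways, with 45 of 90 tested members higher and 27 lower, 38 and 19 of them by 2-fold or more. Over all genes tested, 36.9% were higher and 35.4% lower, and 20.6% and 16.3% by 2-fold or more. The counts for the lists of this paragraph are to be read beside those shares. MME, the peptidase also called CD10, had 2224, 2376 and 2478 counts in H1299 and 0, 0 and 0 in the H1703-labelled libraries, at least 2187-fold higher in H1299. TNFSF12, a membrane-bound cytokine of the TNF family, had 0, 0 and 0 counts in H1299 and 182, 230 and 164 in the H1703-labelled libraries, at least 207-fold higher in the H1703-labelled libraries. Among G-protein-coupled receptors 49 of 110 tested members rose and 34 fell, 36 and 26 of them by 2-fold or more. They were led by BDKRB2, the bradykinin B2 receptor, with 0, 0 and 0 counts in H1299 and 596, 652 and 641 in the H1703-labelled libraries, and by the orphan receptor GPR158 with 121, 145 and 152 counts in H1299 and 1, 3 and 0 in the H1703-labelled libraries. The bradykinin receptor was thus found on one side and the orphan receptor on the other. Ion channels had 68 of 138 tested members higher and 44 lower, 61 and 31 of them by 2-fold or more. The 2 leaders came from 1 family of GABA-gated chloride channels. GABRA5 had 0, 0 and 0 counts in H1299 and 911, 1133 and 770 in the H1703-labelled libraries and GABRA4 136, 166 and 177 counts in H1299 and 0, 0 and 0 in the H1703-labelled libraries. Of the claudins and tight junction genes, CLDN11 had 0, 0 and 0 counts in H1299 and 189, 180 and 173 in the H1703-labelled libraries and JAM2 96, 119 and 117 counts in H1299 and 5, 1 and 1 in the H1703-labelled libraries, with 12 of 23 tested members higher and 7 lower.

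Among secreted genes, inflammatory chemokines, complement components and fibrinogen chains were higher in the H1703-labelled libraries. H1299 held the collagen-crosslinking enzymes LOXL1 and LOX, the collagenase MMP14 and the neuropeptide precursor VGF higher. CXCL5, a neutrophil-attracting chemokine, had 0, 0 and 0 counts in H1299 and 31047, 35863 and 29479 in the H1703-labelled libraries. That is at least 34664-fold higher. CXCL1 and CXCL8, which act on the same receptors, rose by 9.13 ± 0.11 and 10.28 ± 0.37 on the log2 scale, and the interleukin IL6 had 0, 0 and 0 counts in H1299 and 817, 787 and 822 in the H1703-labelled libraries. Of the chemokines and cytokines, 26 of 37 tested members rose and 4 fell, 22 and 3 of them by 2-fold or more. CCL28, a chemokine of mucosal epithelium, was among the 4 that fell, with 102, 107 and 110 counts in H1299 and 0, 0 and 2 in the H1703-labelled libraries. The groups did not overlap for any of these 5 genes, which were named for their large differences, as for 76.9% of all genes tested.

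C3, the central complement component, had 0, 0 and 0 counts in H1299 and 10512, 11624 and 10126 in the H1703-labelled libraries, at least 11602-fold higher (adjusted p = 5.97e-09). Of the complement, coagulation and acute phase genes, 33 of 39 tested members rose and 1 fell, with a median log2 fold change of 4.33 (4.27 with the 8 members at 0 in H1299 put at their lower bound), and 13 of the 81 listed were absent from H1299. Those 8 passed the filter through the H1703-labelled libraries alone and could only rise. F3, the tissue factor that starts coagulation, was the 1 member that fell, with 78, 103 and 81 counts in H1299 and 46, 52 and 47 in the H1703-labelled libraries. All 3 chains of fibrinogen, FGA, FGB and FGG, sit side by side on chromosome 4 and went from 0, 0 and 3 counts summed over H1299 to 325, 395 and 281, 235, 335 and 182 and 121, 137 and 95 counts. These chains and C3 are known as products of the liver that epithelial cells also make in inflammation.

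Growth factors and matrix genes moved in both directions. EREG, a ligand of EGFR, had 0, 0 and 0 counts in H1299 and 1418, 1655 and 1456 in the H1703-labelled libraries, and PTN, a heparin-binding growth factor, had 110, 103 and 116 counts in H1299 and 0, 0 and 0 in the H1703-labelled libraries. CYR61, a matrix-associated product of the YAP pathway now also called CCN1, fell by 2.13 ± 0.05. Growth factors in all had 34 of 66 tested members higher and 21 lower, against 36.9% and 35.4% of all genes tested. By 2-fold or more, 30 were higher and 16 lower, against 20.6% and 16.3%. Binding proteins for insulin-like growth factors, WNT and BMP ligands had 24 of 38 higher and 9 lower. IGFBP7 had 0, 0 and 0 counts in H1299 and 781, 863 and 764 in the H1703-labelled libraries, IGFBP4 rose by 6.70 ± 0.10, the WNT inhibitor DKK1 by 4.18 ± 0.20, and the ligand WNT5B fell by 4.23 ± 0.21 with 266, 247 and 217 counts in H1299 and 14, 14 and 8 in the H1703-labelled libraries.

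Of the collagens and the enzymes that process them, 31 of 46 tested members rose and 13 fell, with a median log2 fold change of 0.99. COL5A1, a chain of the fibril-forming collagen V, had 0, 0 and 0 counts in H1299 and 3721, 4287 and 3774 in the H1703-labelled libraries, and FN1, fibronectin, had 994, 846 and 985 counts in H1299 and 7495, 7870 and 6971 in the H1703-labelled libraries. The crosslinking enzymes LOXL1 and LOX went the other way. LOXL1 had 736, 761 and 737 counts in H1299 and 23, 24 and 21 in the H1703-labelled libraries and LOX, its relative, fell by 4.19 ± 0.11. SMOC1, a matricellular calcium-binding protein, had 0, 0 and 0 counts in H1299 and 650, 703 and 579 in the H1703-labelled libraries, and MFAP2, a microfibril component, had 651, 788 and 640 counts in H1299 and 5, 2 and 4 in the H1703-labelled libraries. Among extracellular proteases and inhibitors, with 58 of 100 tested members higher and 27 lower, MMP14, the membrane-anchored collagenase, had 1432, 1437 and 1430 counts in H1299 and 10, 9 and 11 in the H1703-labelled libraries and TIMP4, an inhibitor of such proteases, had 0, 0 and 0 counts in H1299 and 323, 334 and 284 in the H1703-labelled libraries. MMP14, LOXL1 and LOX were thus higher in H1299, and TIMP4 and COL5A1 in the H1703-labelled libraries. The groups overlapped for none of them, as for 76.9% of all genes tested. These single genes do not stand for their lists. Of the proteases and inhibitors, 45 tested members were higher by 2-fold or more in the H1703-labelled libraries and 19 lower. VGF, a neuropeptide precursor, was high in H1299 with 1846, 2171 and 1807 counts in H1299 and 62, 68 and 54 in the H1703-labelled libraries.

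**Figure D2:**
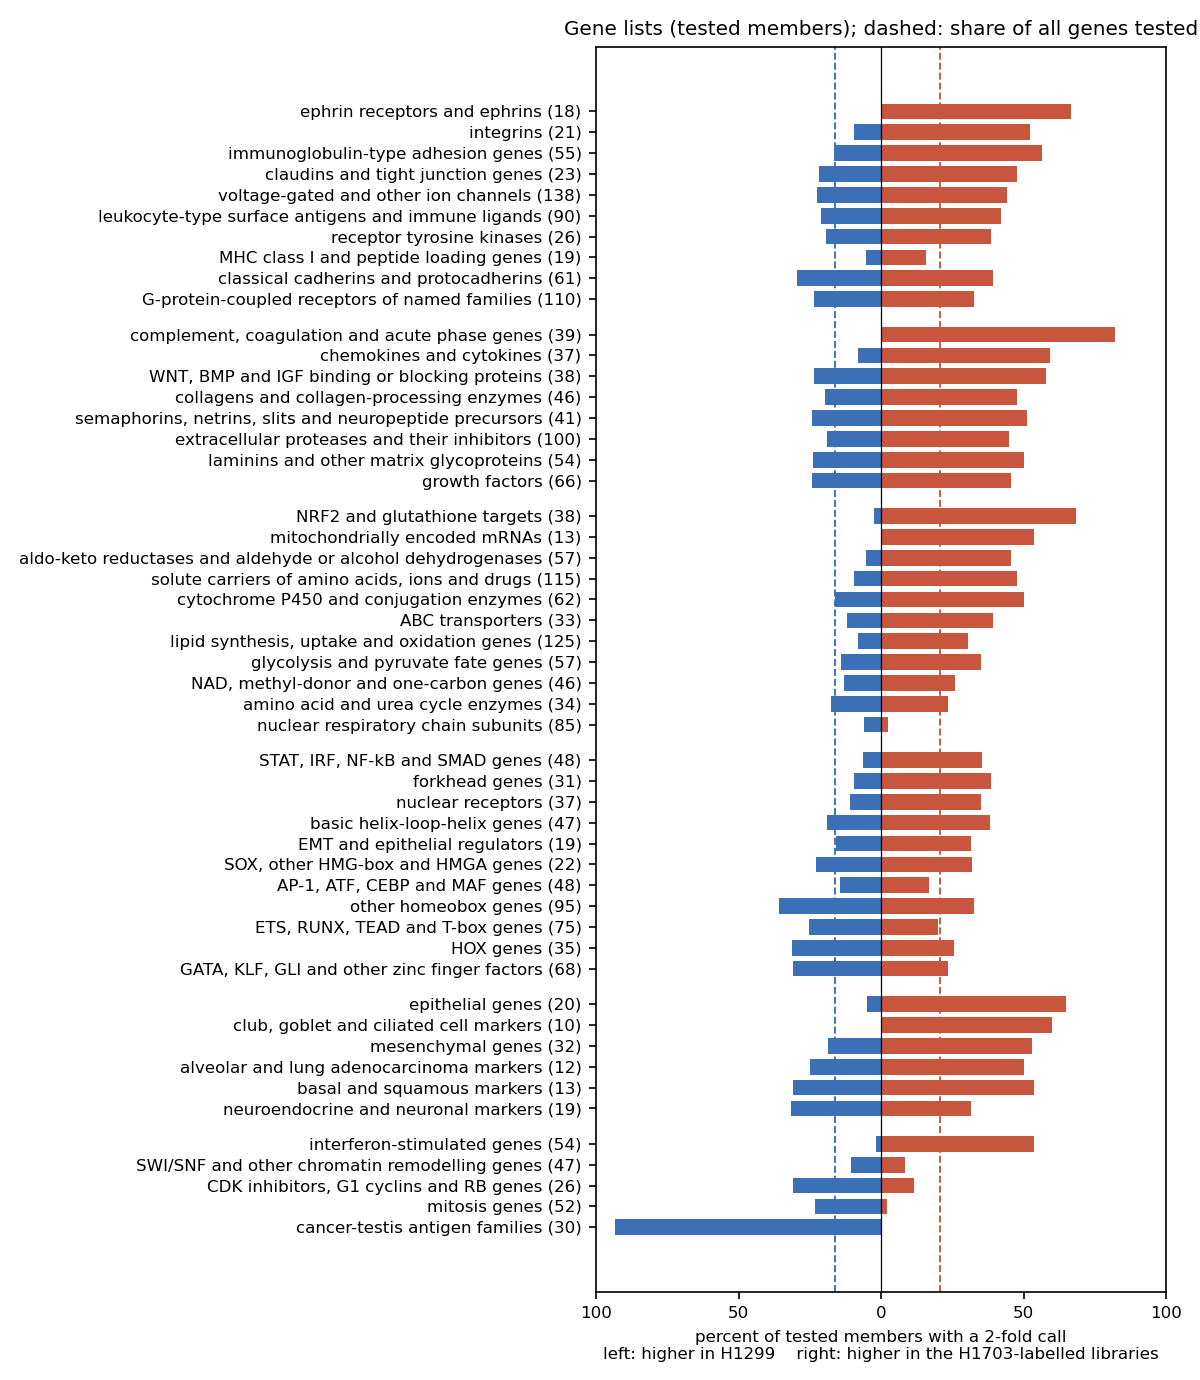
Each bar gives, for 1 gene list with 10 or more tested members (number in brackets, 1 such list not drawn), the percent of tested members called with a 2-fold or larger difference, to the right where higher in the H1703-labelled libraries and to the left where higher in H1299; dashed lines give the same shares over all genes tested, 20.6% and 16.3%. The blocks from top to bottom are surface, secreted, metabolic, transcription factor, identity and tumour gene lists, and the complement list reaches farthest to the right while the cancer-testis list reaches farthest to the left.

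Metabolic genes were led by the aldehyde dehydrogenases and aldo-keto reductases, which oxidise or reduce reactive carbonyls. ALDH1A1, which makes retinoic acid from retinal, had 0, 0 and 0 counts in H1299 and 64845, 74933 and 57339 in the H1703-labelled libraries, and ALDH3A1 had 0, 0 and 0 counts in H1299 and 6995, 7645 and 6921 in the H1703-labelled libraries. AKR1B10 rose by 13.29 ± 0.23, its relative AKR1B1 by 5.56 ± 0.12, and the steroid-reducing enzymes AKR1C1, AKR1C2 and AKR1C3 by 9.66 ± 0.11, 9.46 ± 0.13 and 10.62 ± 0.20. The AKR1C genes are close copies, so the split of reads among them is uncertain. Over the whole list, 40 of 57 tested members rose and 5 fell, with a median log2 fold change of 0.92. HSD17B6, a hydroxysteroid dehydrogenase, was among the 5 that fell, with 90, 83 and 114 counts in H1299 and 27, 40 and 40 in the H1703-labelled libraries.

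NRF2, encoded by NFE2L2, is a transcription factor that switches on genes against oxidants and is held down by KEAP1. Of its targets and the glutathione genes, 31 of 38 tested members rose and 3 fell, with a median log2 fold change of 1.71, and 26 passed 2-fold upwards against 1 downwards. TXNRD1, thioredoxin reductase, had 6121, 8518 and 9454 counts in H1299 and 28832, 31161 and 26580 in the H1703-labelled libraries. ME1, the cytosolic malic enzyme that supplies NADPH, had 228, 236 and 240 counts in H1299 and 2614, 2726 and 2303 in the H1703-labelled libraries, and SLC7A11, which imports cystine, rose by 3.36 ± 0.11. The ferritin chains FTL and FTH1, which store iron, rose by 3.21 ± 0.12 and 4.34 ± 0.13. ABCC3, an exporter of glutathione conjugates, had 49, 41 and 33 counts in H1299 and 4785, 5589 and 4820 in the H1703-labelled libraries, whereas its relative ABCC5 had 866, 874 and 1005 counts in H1299 and 413, 445 and 359 in the H1703-labelled libraries, the 1 member that fell by 2-fold or more. PRDX1, a peroxidase of the same list, had a log2 fold change of 0.16 ± 0.17 and did not pass (adjusted p = 0.439; 0.0067 without replicate 1 of the H1703-labelled libraries, and -0.04 with scaling by total counts). The regulators themselves did not pass the test. KEAP1 had 2449, 2248 and 2321 counts in H1299 and 2111, 2309 and 1609 in the H1703-labelled libraries (log2 fold change -0.12 ± 0.09; -0.31 with an adjusted p of 0.011 under scaling by total counts), and NFE2L2 had 1356, 618 and 687 counts in H1299 and 1121, 1274 and 1030 in the H1703-labelled libraries (0.46 ± 0.34). Replicate 1 of H1299 stood apart for NFE2L2, and without it the log2 fold change was 0.93 with an adjusted p of 3.1e-05.

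The promoters of ME1 and TXNRD1, from 250 bases before to 50 after the RefSeq start on GRCh38.p14, each hold 2 copies of the core to which NRF2 binds, searched as TGACNNNGC on both strands. They are shown because both hold the core and both genes rose with the list, so the match was part of the choice. Capitals mark the cores, which read GCNNNGTCA where they lie on the other strand. The core occurred in 13.3% of all 35116 promoters of the table. Of the tested members of the NRF2 and aldo-keto lists, 72 of 95 had a promoter in the table, too few for a check over the lists. The core was in 12 of these 72 (16.7%), beside 14.8% among the promoters of all protein-coding genes tested, and no conclusion about the lists is drawn from this. The 2 promoters shown, chosen with their match known, are not to be taken as standing for the lists. The ME1 window is chr6:83431002-83431301 on the minus strand and the TXNRD1 window chr12:104215529-104215828 on the plus strand, both printed 5′ to 3′ along the gene.
ME1: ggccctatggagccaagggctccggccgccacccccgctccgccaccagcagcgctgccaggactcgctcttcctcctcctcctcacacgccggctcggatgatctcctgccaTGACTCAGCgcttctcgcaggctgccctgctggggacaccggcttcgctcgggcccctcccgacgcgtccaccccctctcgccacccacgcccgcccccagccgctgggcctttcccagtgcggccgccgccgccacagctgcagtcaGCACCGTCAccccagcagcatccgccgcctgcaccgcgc
TXNRD1: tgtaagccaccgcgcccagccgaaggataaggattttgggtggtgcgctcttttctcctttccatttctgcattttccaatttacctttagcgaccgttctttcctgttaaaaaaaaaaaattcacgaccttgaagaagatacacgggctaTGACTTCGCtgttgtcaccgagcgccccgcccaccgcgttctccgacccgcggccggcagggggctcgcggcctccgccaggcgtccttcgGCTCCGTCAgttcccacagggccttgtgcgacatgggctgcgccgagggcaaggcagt
A match is a description of these letters and not evidence that the factor was bound.

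Drug- and xenobiotic-handling enzymes also rose in number, with 41 of 62 tested cytochrome P450 and conjugation genes higher and 12 lower. MGST2, a microsomal glutathione transferase, had 0, 0 and 0 counts in H1299 and 475, 469 and 319 in the H1703-labelled libraries, and EPHX4, an epoxide hydrolase, had 278, 322 and 268 counts in H1299 and 16, 23 and 18 in the H1703-labelled libraries. For NAD and one-carbon metabolism 19 of 46 tested members rose and 17 fell, and the leaders were opposite routes to NAD. KYNU, kynureninase of the route from tryptophan, had 3, 2 and 0 counts in H1299 and 6901, 7305 and 6374 in the H1703-labelled libraries (log2 fold change 12.01 ± 0.22), and NAPRT, the enzyme that uses nicotinic acid, had 496, 511 and 453 counts in H1299 and 66, 68 and 53 in the H1703-labelled libraries. In amino acid metabolism 18 of 34 tested members rose and 9 fell, with ASS1, the argininosuccinate synthase that lets cells make arginine, at 17, 5 and 13 counts in H1299 and 913, 890 and 725 in the H1703-labelled libraries and CDO1, which breaks down cysteine, at 270, 286 and 309 counts in H1299 and 0, 0 and 0 in the H1703-labelled libraries.

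Glycolysis genes as a list had 28 of 57 tested members higher and 18 lower, with a median of 0.19 that fell to 0.00 under scaling by total counts, and the hexokinases at the head of the pathway differed in direction. HKDC1, a less common hexokinase, had 9, 2 and 10 counts in H1299 and 2252, 2430 and 2042 in the H1703-labelled libraries, and HK2, the isoform common in tumours, had 913, 902 and 961 counts in H1299 and 63, 57 and 48 in the H1703-labelled libraries. Lipid genes had 72 of 125 tested members higher and 32 lower, with ACSS1, the mitochondrial acetyl-CoA synthetase, at 0, 0 and 0 counts in H1299 and 733, 745 and 611 in the H1703-labelled libraries and FABP5, a fatty acid carrier, at 1075, 1322 and 1365 counts in H1299 and 262, 276 and 188 in the H1703-labelled libraries. Solute carriers of amino acids, ions and drugs had 73 of 115 higher and 26 lower. The organic cation carrier SLC22A3 had 0, 0 and 0 counts in H1299 and 892, 1003 and 864 in the H1703-labelled libraries and the fatty acid transporter SLC27A6 had 177, 143 and 128 counts in H1299 and 0, 2 and 2 in the H1703-labelled libraries. Of the ABC transporters, with 21 of 33 higher and 7 lower, the cholesterol exporter ABCG1 had 0, 0 and 0 counts in H1299 and 194, 144 and 149 in the H1703-labelled libraries and the peroxisomal transporter ABCD2 146, 114 and 136 counts in H1299 and 2, 3 and 3 in the H1703-labelled libraries. Only 3 of 12 metallothioneins were tested: MT1F had 0, 0 and 0 counts in H1299 and 169, 142 and 112 in the H1703-labelled libraries, whereas MT2A, a heavy-metal-binding relative, had 12826, 14428 and 15439 counts in H1299 and 6234, 5755 and 5896 in the H1703-labelled libraries.

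All 13 mRNAs of the mitochondrial genome were higher in the H1703-labelled libraries, 7 of them by 2-fold or more, from MT-ND3 at 0.69 to MT-CO1 at 1.65 ± 0.08 on the log2 scale. MT-CO1, a subunit of cytochrome oxidase, had 78144, 71124 and 82894 counts in H1299 and 215606, 268069 and 193066 in the H1703-labelled libraries. The subunits that the nucleus encodes did not follow: of 85 tested, 25 rose and 42 fell, with a median of -0.22. COX7B2, a testis form of an oxidase subunit, had 278, 104 and 240 counts in H1299 and 0, 0 and 0 in the H1703-labelled libraries, and NDUFA3 of complex I had 435, 460 and 531 counts in H1299 and 812, 847 and 979 in the H1703-labelled libraries. The share of counts from the mitochondrial genome, given above, moves with the line. With those genes left out of the fit, the median of the nuclear subunits stayed at -0.22. Any other part of that share in these differences was not tested.

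Transcription factor genes moved in both directions, and several single factors had 0 counts in one line. ELF3, an epithelial ETS factor, had 0, 0 and 0 counts in H1299 and 3781, 4169 and 3276 in the H1703-labelled libraries, and FOXA2, a pioneer factor of endoderm, had 0, 0 and 1 counts in H1299 and 1382, 459 and 577 in the H1703-labelled libraries. For FOXA2 the ratio to the 1 count in H1299 was 2609 (95% counting interval 468 to 103082). Replicate 1 of the H1703-labelled libraries stood above the other two for this gene. ARNT2, a partner of hypoxia and dioxin receptors, had 1, 3 and 1 counts in H1299 and 1493, 1673 and 1438 in the H1703-labelled libraries. TP63, the master factor of basal and squamous epithelium, had 0, 0 and 0 counts in H1299 and 59, 42 and 45 in the H1703-labelled libraries, a low level of 3.14 ± 0.673 CPM. SOX2, a factor of foregut progenitors, was detected in both lines with 97, 91 and 121 counts in H1299 and 601, 671 and 619 in the H1703-labelled libraries (log2 fold change 2.73 ± 0.11). CEBPB, a factor of the acute phase response, rose by 3.18 ± 0.06.

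H1299 in turn held factors that the other line lacked or held low. FOSL1, an AP-1 subunit common in mesenchymal tumour lines, had 6680, 6799 and 7457 counts in H1299 and 386, 501 and 346 in the H1703-labelled libraries and fell by 3.98 ± 0.09 (adjusted p = 9.51e-09). FOXD1, a forkhead factor of stromal cells, had 6515, 7199 and 6956 counts in H1299 and 485, 511 and 374 in the H1703-labelled libraries. HMGA2, an architectural chromatin protein of embryonic cells, fell by 3.46 ± 0.07. SALL3 had 871, 976 and 980 counts in H1299 and 0, 0 and 0 in the H1703-labelled libraries while its relative SALL1 had 0, 0 and 0 counts in H1299 and 210, 234 and 210 in the H1703-labelled libraries, so that 1 member of this embryonic zinc finger family was found in each line. LEF1, a WNT effector, had 216, 198 and 209 counts in H1299 and 3, 0 and 0 in the H1703-labelled libraries, and MEF2C, a muscle and neuronal factor, 242, 249 and 266 counts in H1299 and 0, 0 and 0 in the H1703-labelled libraries. PRRX1, a mesenchymal homeobox factor, had 257, 256 and 276 counts in H1299 and 29, 20 and 21 in the H1703-labelled libraries.

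The HOX genes, which mark position along the body axis, had 11 of 35 tested members higher and 14 lower, 9 and 11 of them by 2-fold or more. Over all genes tested, 36.9% were higher and 35.4% lower, and 20.6% and 16.3% by 2-fold or more. HOXD9 had 318, 285 and 262 counts in H1299 and 0, 1 and 0 in the H1703-labelled libraries. HOXB2 fell by 5.11 ± 0.12 and HOXB4 fell by 6.76 ± 0.38, whereas HOXB8 of the same cluster rose by 3.15 ± 0.42 with 24, 95 and 79 counts in H1299 and 494, 630 and 502 in the H1703-labelled libraries. These genes of the HOXB cluster therefore did not all move in the same direction. Other homeobox genes had 42 of 95 tested members higher and 41 lower, 31 and 34 of them by 2-fold or more. Of these homeobox genes, 9 were absent from H1299 and 14 from the H1703-labelled libraries. The RHOXF2 and RHOXF2B copies, homeobox genes of the germline on the X chromosome, had 3511, 3634 and 3708 and 3452, 3808 and 3657 counts in H1299 and 0 in every H1703-labelled library; reads of the near-identical copies cannot be told apart. STAT, IRF, NF-kB and SMAD genes had 26 of 48 tested members higher and 8 lower, with STAT4 at 0, 0 and 0 counts in H1299 and 135, 136 and 103 in the H1703-labelled libraries and SMAD9 at 118, 120 and 135 counts in H1299 and 0, 2 and 3 in the H1703-labelled libraries. The vitamin D receptor VDR had 1085, 1015 and 1056 counts in H1299 and 449, 502 and 428 in the H1703-labelled libraries.

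Keratins were higher in the H1703-labelled libraries and vimentin in H1299, with mesenchymal genes on both sides. KRT7, a keratin of glandular epithelium, had 91, 126 and 95 counts in H1299 and 32367, 39532 and 31635 in the H1703-labelled libraries and rose by 8.48 ± 0.14 (adjusted p = 3.83e-09). KRT8 had 3512, 3589 and 3639 counts in H1299 and 18120, 23345 and 17104 in the H1703-labelled libraries and its partner KRT18 6241, 6654 and 6686 counts in H1299 and 10427, 11054 and 11025 in the H1703-labelled libraries. VIM, vimentin, had 56928, 59251 and 49967 counts in H1299 and 16196, 17163 and 14085 in the H1703-labelled libraries, and fell by 1.70 ± 0.09 but stayed at 980 CPM or more in every H1703-labelled library. Of the epithelial genes, 15 of 20 tested members rose and 1 fell, with a median log2 fold change of 2.49, where JUP, a component of desmosomes and adherens junctions, rose by 6.34 ± 0.10, and PKP2, a desmosomal plakophilin, was the 1 that fell. KRT19, another keratin of simple epithelium, had 1, 0 and 0 counts in H1299 and 229, 258 and 264 in the H1703-labelled libraries, a ratio of 810 (95% counting interval 145 to 32045). EPCAM, an epithelial surface marker, had 2, 8 and 2 counts in H1299 and 56, 35 and 41 in the H1703-labelled libraries, a low level in both lines. Of the mesenchymal genes, 20 of 32 tested members rose and 11 fell, with a median log2 fold change of 1.62.

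Markers of lung lineages were mostly low or not detected, and a few genes made up most of their level. The alveolar and lung adenocarcinoma markers summed to 308 to 335 CPM in H1299 and 2669 to 2730.3 in the H1703-labelled libraries, of which KRT7 alone had 2210 ± 117 CPM (SD, n = 3). The club, goblet and ciliated markers summed to 1089 to 1199 CPM in H1299 and 770.1 to 806 in the H1703-labelled libraries, most of it the tubulin TUBB4B, with 6 of 10 tested members higher and 1 lower. NKX2-1, the factor of alveolar and airway identity, had 24, 21 and 19 counts in H1299 and 3, 0 and 2 in the H1703-labelled libraries, under 2 CPM in every library. LAMP3, of alveolar type 2 cells, had 142, 122 and 125 counts in H1299 and 33, 27 and 18 in the H1703-labelled libraries, and MUC5AC, a mucin of goblet cells, 0, 0 and 0 counts in H1299 and 315, 429 and 298 in the H1703-labelled libraries. Of the 25 alveolar and lung adenocarcinoma markers 12 were tested, with 7 higher and 4 lower and a median log2 fold change of 1.17, and the surfactant gene SFTPB had 0 counts in all 6 libraries. Of the 49 basal and squamous markers 13 were tested, with 8 higher and 4 lower. DSC3, a desmosomal cadherin, had 0, 3 and 0 counts in H1299 and 97, 127 and 114 in the H1703-labelled libraries, while BNC1, a basal zinc finger factor, had 234, 208 and 251 counts in H1299 and 5, 4 and 15 in the H1703-labelled libraries. KRT5, KRT6A and KRT14, which define squamous tissue, had at most 3 counts per library. Neuronal genes were on both sides, with L1CAM at 5, 6 and 3 counts in H1299 and 206, 255 and 222 in the H1703-labelled libraries and NEFH, a neurofilament, at 543, 539 and 510 counts in H1299 and 3, 0 and 1 in the H1703-labelled libraries.

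Several defining markers of other cell types were at or near 0, but CD14, COL1A1 and LUM had counts in every H1703-labelled library. PTPRC of leukocytes had at most 2 counts per library, CD3E and MS4A1 of lymphocytes had 0 in all 6, and CDH5 of endothelium had 1 count in all. Of 28 leukocyte markers 3 were tested, and their summed level was 26.5 to 47.6 CPM in H1299 and 31.9 to 51.8 in the H1703-labelled libraries. CD14, a lipopolysaccharide co-receptor, rose with 0, 3 and 2 counts in H1299 and 443, 453 and 185 in the H1703-labelled libraries. CD68 had 342, 532 and 736 counts in H1299 and 293, 231 and 212 in the H1703-labelled libraries; its adjusted p of 0.0147 became 0.059 and 0.058 without replicate 2 or 3 of the H1703-labelled libraries. Fibroblast and smooth muscle markers summed to 12.8 to 15.5 CPM and 88.9 to 97.7 CPM, with 6 of 14 tested, 5 higher and 1 lower. COL1A1 had 27, 14 and 28 counts in H1299 and 1025, 994 and 974 in the H1703-labelled libraries and LUM 0, 0 and 0 counts in H1299 and 86, 78 and 71 in the H1703-labelled libraries, while COL1A2 and DCN of the same list had at most 10 counts per library. Endothelial markers, 4 of 13 tested, summed to 38.4 to 42.3 and 57.3 to 65.1 CPM, most of it EGFL7.

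Among single tumour genes of growth arrest and cell death, CDKN1A, PHLDA3, BAX and EDA2R were higher in the H1703-labelled libraries and GADD45A was lower. CDKN1A, the p21 inhibitor of cyclin-dependent kinases, had 1459, 1484 and 1317 counts in H1299 and 3431, 3715 and 3356 in the H1703-labelled libraries, and PHLDA3, which dampens AKT, had 0, 0 and 0 counts in H1299 and 2116, 2164 and 2026 in the H1703-labelled libraries. BAX, which opens the outer membrane of mitochondria in cell death, rose by 1.74 ± 0.06, and EDA2R, a receptor of the TNF family, had 0, 0 and 0 counts in H1299 and 324, 418 and 317 in the H1703-labelled libraries. MDM2, a ubiquitin ligase, had a log2 fold change of 0.12 ± 0.09 and did not pass (adjusted p = 0.277; -0.07 under scaling by total counts), and GADD45A, a stress-induced growth inhibitor, fell with 1005, 925 and 954 counts in H1299 and 330, 352 and 328 in the H1703-labelled libraries.

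CDKN2A, which encodes the p16 and ARF inhibitors, had 3333, 3800 and 3289 counts in H1299 and 0, 0 and 0 in the H1703-labelled libraries, at least 3220-fold higher in H1299. Its neighbour CDKN2B, the p15 inhibitor, had 625, 588 and 628 counts in H1299 and 0, 0 and 0 in the H1703-labelled libraries, and CDKN2A also had 0 counts in each of the 3 SAHA-treated libraries of that line. MTAP, the methionine salvage enzyme beyond CDKN2A on chromosome 9, was low but present, with 645, 705 and 720 counts in H1299 and 143, 79 and 178 in the H1703-labelled libraries (log2 fold change -2.23 ± 0.33). The G1 genes as a list had 6 of 26 tested members higher and 18 lower, CDK6, a target of p16, falling by 1.93 ± 0.07. RB1, the retinoblastoma suppressor, had 1179, 1162 and 1398 counts in H1299 and 941, 1001 and 855 in the H1703-labelled libraries (-0.31 ± 0.07), a difference that missed the threshold in a fit over all 12 libraries (adjusted p = 0.055). Mitosis genes had 4 of 52 members higher and 36 lower, with NDC80 of the kinetochore at 2593, 3024 and 3191 counts in H1299 and 292, 379 and 288 in the H1703-labelled libraries and the phosphatase CDC25B at 2194, 2239 and 3277 counts in H1299 and 7262, 8429 and 6829 in the H1703-labelled libraries. MYC varied too much between replicates for a direction, with 120, 102 and 1367 counts in H1299 and 545, 77 and 430 in the H1703-labelled libraries (log2 fold change -0.41 ± 1.31, adjusted p = 0.799). STK11 had 1831, 2055 and 1907 counts in H1299 and 1391, 1505 and 1296 in the H1703-labelled libraries and SMARCA4, a chromatin remodelling ATPase, 393, 407 and 428 counts in H1299 and 191, 212 and 201 in the H1703-labelled libraries, both lower in the H1703-labelled libraries.

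Cancer-testis antigens were nearly all on the H1299 side. Of the 30 tested members 29 fell and none rose, 28 of them by 2-fold or more, and 19 of the 112 members were absent from the H1703-labelled libraries. MAGEA4 had 12440, 13385 and 11956 counts in H1299 and 0, 0 and 0 in the H1703-labelled libraries, at least 11673-fold higher in H1299, and CTAG1B, one of a pair of identical NY-ESO-1 genes, had 2055, 2720 and 2198 counts in H1299 and 0, 0 and 0 in the H1703-labelled libraries. MAGEA3 fell by 2.72 ± 0.08 and was still present. PRAME was the 1 tested member that did not pass, with 3086, 2980 and 3019 counts in H1299 and 2561, 2778 and 2410 in the H1703-labelled libraries (log2 fold change -0.12 ± 0.05, adjusted p = 0.0684; 0.045 without replicate 3 of H1299 and 0.00078 under scaling by total counts). GAGE, CT45A and MAGEA2 copies are near-identical and their single values are uncertain. With the CTAG1 pair they enter the counts above as separate members, so 29 of 30 is not a count of independent genes. The 15 tested members at 0 in every H1703-labelled library passed the filter through H1299 alone and could only fall.

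Genes were called absent from a line where its 3 libraries summed to 3 counts or fewer and the other line had a mean of 1 CPM or more. At this depth 3 counts over a line correspond to 0.0595 CPM in H1299 and 0.0642 CPM in the H1703-labelled libraries. Absence thus means a measured level at or below that. For genes with 0 counts it is a limit that covers counting error only, and absent genes with a few counts may lie above it by counting error. Of 12934 protein-coding genes with 1 CPM or more in the H1703-labelled libraries, 444 were absent from H1299 (3.43%), 306 with 0 counts in each library. Of 12453 with 1 CPM or more in H1299, 236 were absent from the H1703-labelled libraries (1.90%), 152 with 0 counts in each. Runs of 3 or more neighbouring protein-coding genes absent from the same line, passing over genes under 1 CPM in both, numbered 11 with 35 genes for H1299 and 8 with 46 genes for the H1703-labelled libraries.

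The runs absent from the H1703-labelled libraries lay mostly in the zinc finger clusters of chromosome 19, which encode KRAB-type repressors, many of which silence transposable elements. Of the 8 runs, 5 were on chromosome 19 and held 31 genes, all of them ZNF genes. The first ran from ZNF441 to ZNF844 (chr19:11767000-12081565, GRCh38, as in the deposited tables) with 9 absent genes. ZNF700 within it had 202, 242 and 313 counts in H1299 and ZNF844 284, 288 and 282, against 0 in each H1703-labelled library. The run from ZNF253 to ZNF85 (chr19:19865886-20950697) also held 9, and every protein-coding gene between its ends was absent. ZNF626 had 148, 143 and 180 counts in H1299 and 0, 0 and 0 in the H1703-labelled libraries, and ZNF253, with 69, 32 and 175 counts in H1299 and 0, 0 and 0 in the H1703-labelled libraries, was the most variable of that run; its adjusted p of 0.0158 became 0.061 without replicate 1 of H1299.

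Further along, ZNF610, ZNF880, ZNF528, ZNF808, ZNF701 and ZNF83 formed a run of 6 (chr19:52336245-52690496), ZNF415, ZNF347, ZNF665 and ZNF677 a run of 4 (chr19:53107879-53254898), and ZNF257, ZNF492 and ZNF730 a run of 3 (chr19:22052452-23147219). ZNF83 had 263, 259 and 259 counts in H1299 and 0, 0 and 0 in the H1703-labelled libraries and ZNF677 282, 280 and 317 counts in H1299 and 0, 0 and 0 in the H1703-labelled libraries. Over all 246 ZNF genes of chromosome 19, 231 were tested, of which 38 rose and 139 fell, 112 by 2-fold or more, with a median of -0.92. ZNF genes of other chromosomes had 61 of 234 higher and 89 lower, with a median of -0.21, and the other protein-coding genes of chromosome 19 had 299 of 810 higher and 347 lower, with a median of -0.11. These 3 sets were drawn up after the runs had been seen, so their difference is a description. In all, 49 ZNF genes of chromosome 19 were absent from the H1703-labelled libraries and 2 from H1299, and ZNF genes with counts lay between the runs. The 49 are part of the 231 tested, and by the definition of absence they could only fall. The counts and median of that set therefore partly restate the absences and the runs.

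**Figure D3:**
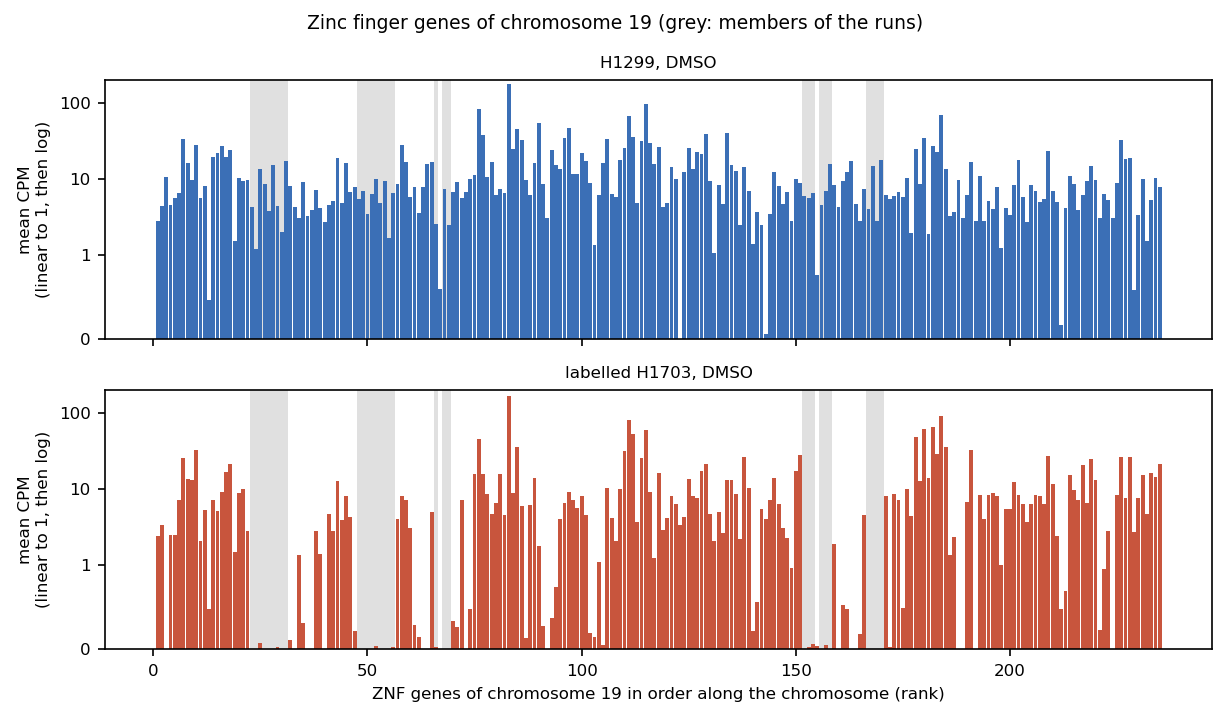
Each bar is 1 ZNF gene of chromosome 19, in order along the chromosome by rank, with its mean CPM over 3 libraries (linear to 1, then log) in H1299 above and in the H1703-labelled libraries below; grey marks the 31 members of the runs. The grey stretches hold bars in H1299 and almost none in the lower panel, while bars stand in both panels between them.

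The promoters of 2 of these genes are shown from RefSeq (GRCh38.p14, 250 bases before to 50 after the start) because their CpG sites are where DNA methylation acts, with each CG in capitals. ZNF677 holds 34 CpG sites and ZNF700 holds 14. The ZNF677 window is chr19:53254774-53255073 on the minus strand and the ZNF700 window chr19:11924857-11925156 on the plus strand. No methylation was measured.
ZNF677: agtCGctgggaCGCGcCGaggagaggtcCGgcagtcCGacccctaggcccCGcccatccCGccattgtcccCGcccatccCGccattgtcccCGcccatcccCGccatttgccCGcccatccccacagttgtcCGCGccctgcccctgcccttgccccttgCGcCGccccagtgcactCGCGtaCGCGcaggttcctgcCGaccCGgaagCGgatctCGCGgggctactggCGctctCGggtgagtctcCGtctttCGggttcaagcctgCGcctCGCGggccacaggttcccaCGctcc
ZNF700: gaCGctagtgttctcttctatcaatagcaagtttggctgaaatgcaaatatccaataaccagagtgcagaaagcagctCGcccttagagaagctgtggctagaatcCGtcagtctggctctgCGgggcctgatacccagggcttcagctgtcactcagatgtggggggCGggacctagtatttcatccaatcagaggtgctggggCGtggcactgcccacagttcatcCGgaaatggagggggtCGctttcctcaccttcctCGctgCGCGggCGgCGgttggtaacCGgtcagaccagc
Of the 31 ZNF genes in the runs, 28 had a promoter in the table, with a median of 14 CpG sites. The tested ZNF genes of chromosome 19 that were not absent had a median of 21 over 165 of 182, and all protein-coding genes tested had a median of 26 over 11266 of 13840. The median was also 14 over all 35116 promoters of the table, 12 over 306 of the 444 genes absent from H1299 and 17 over 194 of the 236 absent from the H1703-labelled libraries. The run promoters thus held fewer CpG sites than the other ZNF genes of chromosome 19 and the tested genes, but not fewer than promoters in general, as a description without a test.

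The other runs absent from the H1703-labelled libraries were 2 of cancer-testis genes on the X chromosome and 1 on chromosome 11. The GAGE run (chrX:49303669-49608536) held 9 copies, with GAGE2A at 6727, 7765 and 7910 counts in H1299 and 0 in every H1703-labelled library, and the CT45A run (chrX:135713453-135785298) held CT45A1, CT45A3 and CT45A5. On chromosome 11, ANO3, MUC15 and SLC5A12 were absent together, an anoctamin membrane protein, a mucin and a lactate transporter. MUC15 had 155, 159 and 177 counts in H1299 and 0, 0 and 0 in the H1703-labelled libraries.

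The 11 runs absent from H1299 were shorter and spread over 8 chromosomes, and most joined unlike genes. FOXA2 and THBD, thrombomodulin, lay beside each other on chromosome 20 (chr20:22560553-23049741) with the predicted gene AL121722.1. AL121722.1 ends at 22584261 and FOXA2 starts at 22581005, so they overlap and their reads may not be separate. FOXA2 and THBD alone would not reach the 3 genes asked of a run. THBD had 0, 0 and 1 counts in H1299 and 442, 470 and 413 in the H1703-labelled libraries. HAS1, FPR1 and FPR2, a hyaluronan synthase and the formyl peptide receptors, lay on chromosome 19 (chr19:51713112-51804110), where FPR1 had 3, 0 and 0 counts in H1299 and 1162, 1276 and 1029 in the H1703-labelled libraries and FPR2 0, 0 and 0 counts in H1299 and 465, 483 and 494 in the H1703-labelled libraries. PHLDA3 with IGFN1 and LAD1 lay on chromosome 1, DDC, GRB10 and COBL on chromosome 7, where the adaptor GRB10 had 0, 0 and 0 counts in H1299 and 1510, 1655 and 1518 in the H1703-labelled libraries, and ABCG1, RSPH1, SLC37A1 and PDE9A on chromosome 21. S100A6, a calcium-binding protein of most epithelial and stromal cells, had 0, 0 and 0 counts in H1299 and 15467, 14442 and 14506 in the H1703-labelled libraries and followed HRNR and FLG, with 47 genes under 1 CPM in both lines between the ends of that run. SFRP5, GOLGA7B and CRTAC1 formed a run on chromosome 10.

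Gene families made up the remaining runs of H1299. The 3 fibrinogen chains were 1 run (chr4:154562956-154612967), IGFL2, IGFL3 and IGFL4 another, and CYP4F3, CYP4F11 and CYP4F12, fatty acid hydroxylases and close relatives, one more. UGT1A1, UGT1A6, UGT1A8 and UGT1A9, glucuronidation enzymes, share most of their exons and are 1 locus, so their absences are not separate. DDC, IGFL2, RSPH1 and UGT1A6 of these runs did not pass the filter on low counts. UGT1A9 had 0, 0 and 0 counts in H1299 and 111, 97 and 79 in the H1703-labelled libraries.

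The SAHA-treated libraries of the same line were read only to see whether absent genes stayed so. Of the 236 genes absent from the H1703-labelled DMSO libraries, 108 were at or below 3 counts in the SAHA libraries too, and 68 had 0 counts in each. Of the 444 absent from H1299, 135 and 64 met those marks. The 31 ZNF genes of the runs divided by cluster: 9 of 9 in the ZNF441 run, 8 of 9 in the ZNF253 run, 4 of 4 in the ZNF415 run and 3 of 3 in the ZNF257 run stayed at or below 3 counts, but only 1 of 6 in the ZNF610 run did. ZNF528 had 8, 19 and 17 counts in the SAHA libraries and ZNF880 10, 8 and 7. Both had 3 counts or fewer in all under DMSO. The dose of SAHA given to these libraries is not stated in the labels.

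**Figure D4:**
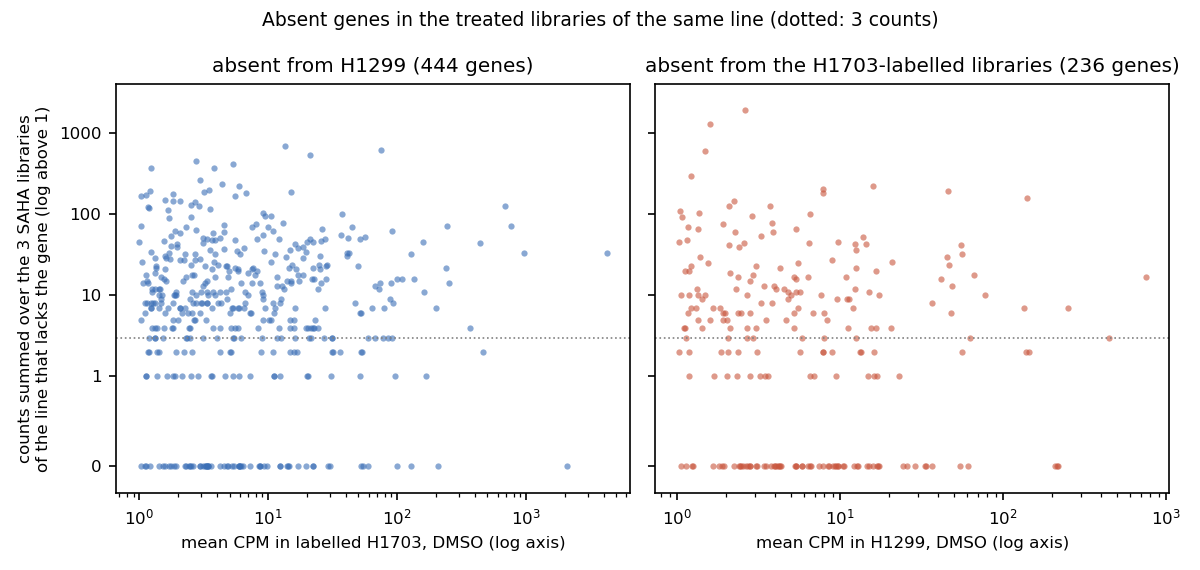
Each point is 1 protein-coding gene absent from 1 line under DMSO, with its mean CPM in the other line on a log axis and its counts summed over the 3 SAHA libraries of the line that lacks it on a scale that is logarithmic above 1; the dotted line marks 3 counts. At or below it lie 135 of 444 genes on the left, for H1299, and 108 of 236 on the right, for the H1703-labelled libraries.

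Windows of 25 neighbouring tested protein-coding genes were read as a coarser scale. The lowest 3 medians were all on chromosome 19, where they overlapped the runs absent from the H1703-labelled libraries: -7.76 from ZNF253 to ZNF681, -7.23 from PRKCSH to ZNF709 and -7.07 from ZNF836 to ZNF525, or -5.73, -4.93 and -5.95 with genes at 0 put at their bound. The highest were 2.28 from CRLF2 to TMSB4X on the X chromosome, with 25 of 25 genes above 0, 1.82 from ZBTB41 to LGR6 on chromosome 1, and 1.75 from KRT19 to NAGLU on chromosome 17, and neither the X chromosome nor chromosome 17 held a run absent from H1299. With windows of 15 genes the highest was 5.69, from ANKRD17 to ODAPH on chromosome 4, where the CXCL chemokines lie. Whole chromosomes differed less: the median log2 fold change ran from -0.54 on chromosome 6 over 720 genes to 0.64 on chromosome 17 over 853 genes. RNA counts alone do not give copy number, and none was measured.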

How the data were processed

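Polyadenylated RNA of 12 libraries was sequenced as paired-end reads, and the authors deposited 1 table per line with, per the file headers, a raw count and an FPKM value per gene and library. Per the submitters' processing notes the tools include HISAT2 2.1.0, StringTie 1.3.3b, edgeR 3.30.3 and fastp. The counting tool, annotation release and strand setting: not given in the sources used here. On strand, the labels name both a directional kit and an un-stranded library. Values of overlapping, antisense and near-identical genes are therefore uncertain. The deposited FPKM values equalled count over total over gene length within 1% in 100.0% of 201185 values. No column of values was left without a sample.

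The 6 DMSO libraries were joined by gene identifier (58302 genes, the same positions in both tables) and grouped by the sample titles. Genes were kept by edgeR 4.0.16's filter (minimum count 10, minimum total 15), scaled by TMM and tested with the robust quasi-likelihood test in R 4.3.3, line as the only term, with Benjamini-Hochberg adjustment over 16942 genes. DESeq2 1.42.0 was an alternative. The fit was tested on simulated data. A batch label carries the repeat number in both lines, which pairs the libraries by label; deviations of same-number libraries from their line's mean correlated by only 0.012 to 0.0212, and the fit with the number as a block is given among the alternatives.

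The 57 gene lists and their members were chosen with earlier results of these data known, and some wrongly matched symbols were removed after values had been seen. Lists are described by counts and medians, with no test. Genes named are the 10 largest protein-coding differences each way with 20 CPM or more, the called member of each list with the largest difference each way with 5 CPM or more, the members of the runs, and a fixed set of tumour and lineage genes. Other genes in the text (such as KRT7, AKR1B10, CXCL8, HOXB2 and HMGA2) and ZNF genes of chromosome 19 as a set were chosen after their values were seen. Fold differences against a line at 0 are given against 3 counts over its 3 libraries. Intervals are 95% and cover counting error only. Promoters came from the RefSeq table of GRCh38.p14. Sex-linked genes of the Y chromosome and XIST were left out, and some other genes and 1 gene list are not reported here.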

Additional observations from a re-analysis of the deposited data

Results flagged for a closer look

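The SAHA-treated libraries lie outside the comparison and held counts of genes that were absent from the same line under DMSO. Of the 444 protein-coding genes absent from H1299, 80 had 10 or more counts in each of its 3 SAHA libraries. LBH, a transcriptional cofactor, had 197, 216 and 201 counts there and LZTS1, a leucine zipper tumour suppressor candidate, 151, 175 and 215, against 0 in each DMSO library. Of the 236 absent from the H1703-labelled libraries, 30 had 10 or more counts in each SAHA library of that line. KRTAP2-3, a hair keratin-associated protein with a close copy beside it, had 644, 842 and 461 counts, CCNA1, the germline cyclin A, 62, 84 and 79, and MME 75, 46 and 40. These genes were singled out after their values were seen, and no test of the treatment was made here.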

How the results depend on the processing

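The count of called genes ranged from 11891 to 12026 without one library and was 11878 with the replicate block, 12913 with DESeq2's Wald test, 13465 without the filter, 12712 in one fit over all 12 libraries and 12414 with no scaling beyond the total count (an alternative chosen after seeing the data), against 12260. The block kept 11711 calls, lost 549 and gained 167, and of the named genes it reversed MYC, which was not called. Scaling by total counts lowered the share of calls that were higher in the H1703-labelled libraries from 51.0% to 42.1%, with 5221 higher and 7193 lower. Calls of 2-fold or more were 6415 to 6475 without one library, against 6256.

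Of 247 named genes under 13 alternatives, 3190 of 3209 values kept direction and side of the threshold. Without one library FGFR1 ranged from -0.08, without replicate 3 of H1299, to 0.25, and it reversed to -0.09 under total-count scaling, MYC ranged from -0.89 to 1.78 without one library and was 0.08 with the replicate block, and MDM2 reversed to -0.07 and PRDX1 to -0.04 under total-count scaling. None of these 4 passed the test under those settings.

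Absent genes and runs moved with their definition. Genes absent from H1299 were 672 with a floor of 10 counts, and from the H1703-labelled libraries 152 with a floor of 0; without one library they were 443 to 532 and 232 to 280. Runs absent from H1299 numbered 20 and 6 when 0.5 or 2 CPM was asked of the other line, 5 and 21 with floors of 0 and 10 counts, 54 for 2 or more genes and 19 over all annotated genes, against 11 (10 to 14 without one library). Runs absent from the H1703-labelled libraries numbered 5 and 14 with those floors, 33 for 2 or more genes and 21 over all annotated genes, against 8 (7 to 9). The highest neighbourhood median was 5.69 with 15 genes, and the lowest was -1.60 with 50 genes and -9.44 with 15. Looser definitions admit more genes by construction; beyond that the cause was not tested.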

Other observations

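Interferon-stimulated genes, which answer viral RNA and DNA, had 40 of 54 tested members higher in the H1703-labelled libraries and 5 lower, 29 and 1 by 2-fold or more, with a median log2 fold change of 1.07. OAS1, a sensor of double-stranded RNA, had 0, 0 and 2 counts in H1299 and 612, 657 and 490 in the H1703-labelled libraries, a ratio of 949 (95% counting interval 262 to 7841). LGALS3BP, a secreted glycoprotein of this group, rose by 5.62 ± 0.19. IFIH1, another RNA sensor, went the other way with 409, 450 and 470 counts in H1299 and 99, 131 and 113 in the H1703-labelled libraries, so the 2 sensors were high in different lines. MHC class I and peptide loading genes had 11 of 19 tested members higher and 4 lower, and HLA-B, a classical class I heavy chain, was the 1 that fell by 2-fold or more, with 2080, 2126 and 2171 counts in H1299 and 365, 419 and 294 in the H1703-labelled libraries. TAPBPL, a peptide editor of class I, had 33, 30 and 25 counts in H1299 and 125, 123 and 98 in the H1703-labelled libraries.

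Of the SWI/SNF and other chromatin remodelling genes, 12 of 47 tested members were higher in the H1703-labelled libraries and 25 lower, with a median of -0.28. CHD7, a remodeller of neural crest and neuronal enhancers, had 1311, 1267 and 1524 counts in H1299 and 222, 215 and 289 in the H1703-labelled libraries, and SMARCD3, a subunit found in heart and neuronal complexes, had 61, 80 and 56 counts in H1299 and 352, 442 and 346 in the H1703-labelled libraries. Neither pair of groups overlapped, as for 76.9% of all genes tested. HEY1, a target of Notch, had 95, 96 and 112 counts in H1299 and 12, 10 and 7 in the H1703-labelled libraries, and TOX2, an HMG-box factor, had 30, 31 and 36 counts in H1299 and 260, 249 and 222 in the H1703-labelled libraries.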
